A study of Homo sapiens with 4 samples.

Results

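The genes described here are 32 targets of the transcription factor p53 whose main known roles lie outside apoptosis: inhibitors of p53 itself, DNA repair factors, stress sensors, metabolic enzymes and brakes on the cell cycle. They are a list of names from the pathway, drawn up with earlier results of these arrays known; no measured value enters the rule. Each was read through the probe set, a group of short array probes, with the highest mean intensity among those annotated to that gene alone. Of the 32 genes, 30 were found this way, among 19775 genes in all; BTG2 and FDXR had no probe set named in the annotation and were not analysed here.

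RNA came from AGS, an established human gastric adenocarcinoma line. The control group was 2 arrays of AGS cells with wild-type PRMT6, and the PRMT6-knockout group was 2 arrays of AGS cells infected with a lentiviral lentiCRISPR v2 vector carrying a guide against PRMT6, selected with puromycin and cloned by limiting dilution. PRMT6 is an arginine methyltransferase that acts on histone H3, and the comparison asks how transcripts differ without it. The labels do not say whether the knockout arrays come from the same clone or from different ones, whether control cells received a vector or drug, or whether arrays of a group are separate cultures, so p-values measure only the spread between these arrays, which may be technical.

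p53 is held at a low level in unstressed cells by MDM2 and MDM4, and DNA damage or other stress frees it to bind DNA and switch on its targets. These targets halt the cell cycle, repair DNA, tune metabolism and, through MDM2 and PPM1D, shut the response off again. Several of these genes also answer to ATF4, the transcription factor that cells use when amino acids run short or proteins misfold; SESN2, GADD45A and GADD45B were set apart for this reason and are called ATF4-linked here. That short list is not meant to be complete.

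Some facts hold for all results. PRMT6 was at a log2 intensity of 8.03 and 8.11 on the control arrays and 7.79 and 7.63 on the knockout arrays, lower by 0.36 (SE 0.09, adjusted p = 0.043, limma), a call that did not survive leaving out any single array (0.10 to 0.23); the transcript remained measurable, and a change in DNA need not lower it. Arrays of 1 group correlated across probe sets at Pearson's r of 0.995 and 0.996, and arrays of different groups at 0.981 to 0.984; probe sets are not independent. The epithelial markers KRT8, KRT18, KRT19 and EPCAM stood between 11.76 and 13.30 on all arrays and CDH1 between 7.20 and 7.29. KRT8 (0.49) and KRT19 (0.61) were called higher in knockout cells and CLDN4 (-0.46) lower. The 6 epithelial markers summed to linear intensities of 24044 to 24802 in control and 26701 to 27602 in knockout cells. The 6 fibroblast markers summed to 449 to 475 and 1187 to 1254, sums that came mostly from COL1A1 (8.55 and 8.60 against 10.18 and 10.09). COL1A1, LUM and COL3A1 were called higher in knockout cells (3 of 6). LUM (2.25 to 3.76) and COL3A1 (2.66 to 4.09) were dim on all arrays. The 4 leukocyte markers were not called, with sums of 7063 to 7605 and 2568 to 5303 that came mostly from LYZ, nor were the 3 endothelial markers, with sums of 97.2 to 108 and 110 to 115. No marker was at 0 on this log scale, and the part of these shifts in the results below was not tested.

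In PRMT6-knockout cells the p53 targets did not move as a block. Of the 30 genes measured, 8 rose (DDB2, TP53INP1, TP53I3, TRIAP1, SESN1, PLK2, TIGAR and ZMAT3), 6 fell (SESN2, GADD45B, GADD45A, SERTAD1, BTG1 and MDM4) and 16 were not called. Here called means an adjusted p under 0.05 in limma, a linear model that draws each gene's spread toward a common value. The adjustment was by the Benjamini-Hochberg method over all 19775 genes. The members called made up 46.7%, against 24.0% of all genes; 26.7% were called higher and 20.0% lower, against 12.4% and 11.5%. That gap was smaller among bright genes: with the genes above the median intensity alone, 17 of 26 members (65.4%) were called, against 56.3% of those genes. The median change of the 30 members was -0.01 on the log2 scale, the same to 2 decimals as the median of -0.01 over all genes, and members ranged from -1.50 (SESN2) to 1.28 (DDB2). For 21 of the 30 members (70.0%) both knockout values lay outside the range of the controls on one side, against 58.2% of all genes.

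**Figure D1:**
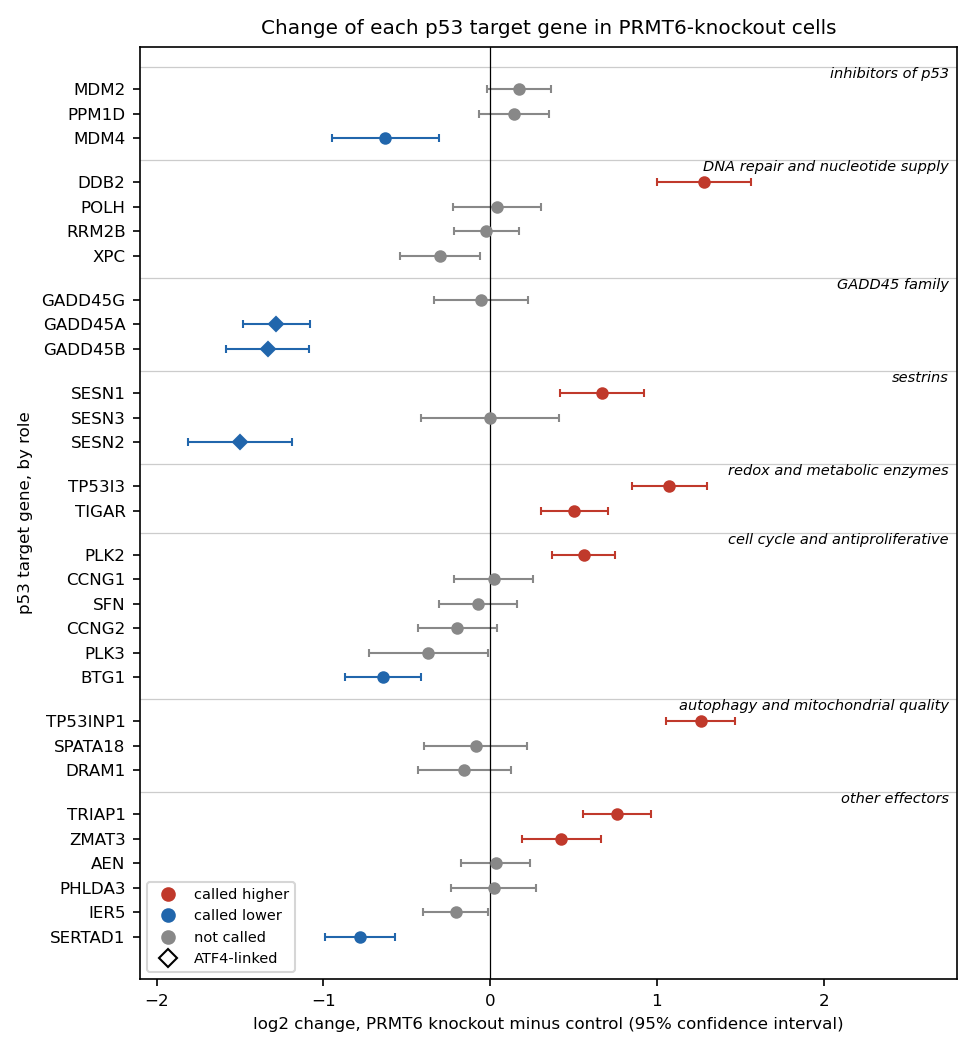
Log2 change of each of the 30 p53 target genes (knockout mean minus control mean, n = 2 arrays each; bars are 95% confidence intervals from limma), grouped by role. Red points were called higher, blue points lower and grey points neither; diamonds mark the 3 ATF4-linked genes, which lie at -1.28 to -1.50, while the highest points are DDB2 (1.28), TP53INP1 (1.26) and TP53I3 (1.07).

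The 3 ATF4-linked genes all fell, and they were also the 3 members with the largest falls. Without them, 8 of 27 members rose (29.6%) and 3 fell (11.1%), against 12.4% and 11.5% of all genes, with a median of 0.02. The ATF4-linked genes were set apart with earlier results of these arrays known, so this balance follows in part from that choice. The single-array values separated the groups for all 14 called members, which adds little, since a call with 2 arrays a group nearly requires it. Of the 14, 6 changed by 2-fold or more, 3 up and 3 down. The share of all genes that changed this much was not counted, so no comparison is drawn. Changes over all genes had a standard deviation of 0.45 on the log2 scale. How far the calls rest on single arrays differed. GADD45A, GADD45B, TP53I3 and TP53INP1 kept their calls with each array left out in turn, whereas the other 10 lost theirs when either knockout array was left out and the remaining one was assumed to vary like the controls; the changes themselves kept their sign. Without knockout 1, and likewise without knockout 2, 2 members were called higher and 2 lower (13.3% of members), against 2.88% and 2.57% of all genes.

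**Figure D2:**
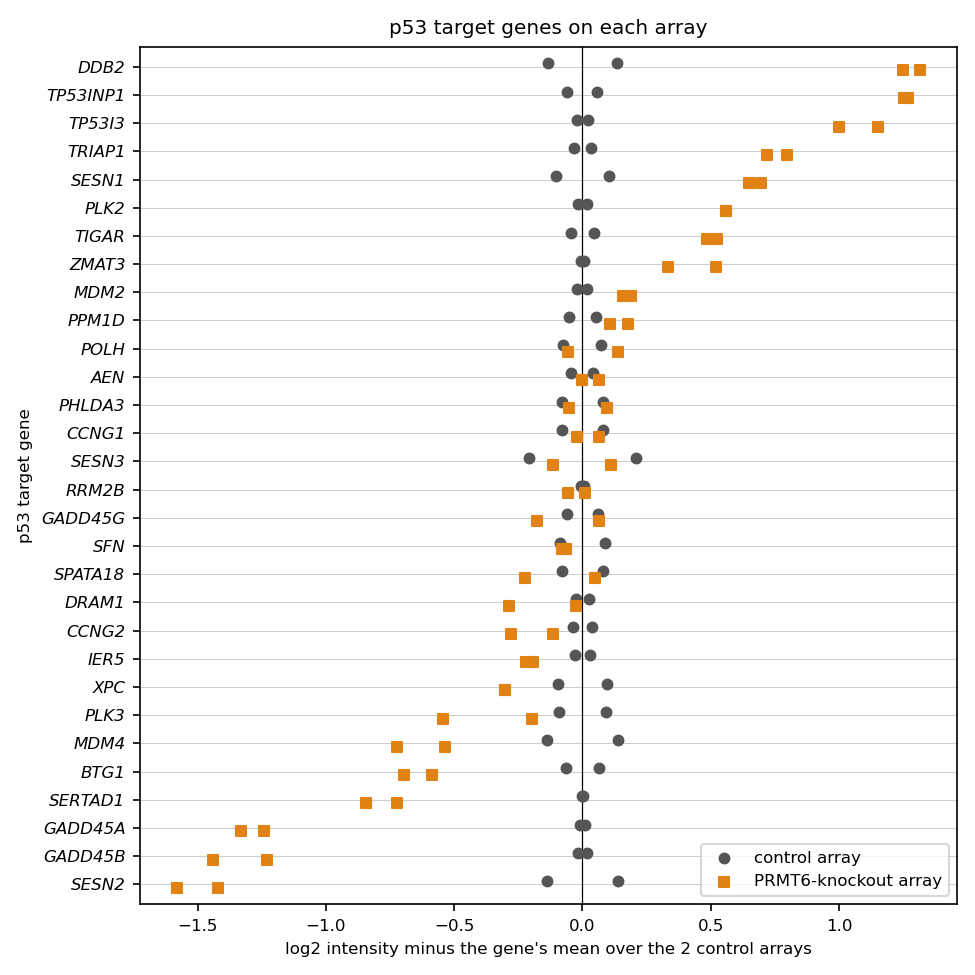
Log2 intensity of each of the 30 p53 target genes on every array, drawn relative to that gene's mean over the 2 control arrays (circles, control; squares, knockout). Knockout squares lie clear of the control circles for genes at the top, such as TP53INP1, and at the bottom, such as SESN2, and mingle with them in the middle, as for CCNG1 and AEN.

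p53 reads DNA as pairs of a short palindromic motif, the half-site, and for 26 of the 30 measured genes RefSeq (GRCh38.p14) gives windows of 250 bases before to 50 bases after a start site. The canonical half-site, searched on both strands, lay in such a window of 4 of these 26 genes. They were 3 of 7 genes called higher (DDB2, PLK2 and SESN1), 0 of 5 called lower and 1 of 14 not called (AEN); counted by window, since a gene can have several, 5 of the 37 windows of all listed members hold one (13.5%, with 1 for FDXR), against 6.63% of all 35116 windows. Their stretches are shown, half-sites in capitals with 30 bases on either side where the window allows, 5′ to 3′ on the gene's strand.

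DDB2: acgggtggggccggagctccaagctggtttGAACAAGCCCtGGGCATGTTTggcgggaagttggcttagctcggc
PLK2: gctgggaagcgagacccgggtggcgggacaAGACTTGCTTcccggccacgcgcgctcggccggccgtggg
SESN1: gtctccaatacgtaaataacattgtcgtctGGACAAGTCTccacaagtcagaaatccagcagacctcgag
AEN: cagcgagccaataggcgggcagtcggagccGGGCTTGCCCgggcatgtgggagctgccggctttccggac

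The stretches lie at chr11:47214949-47215023 (plus strand) for DDB2, chr5:58460179-58460248 (minus strand) for PLK2, chr6:109008998-109009067 (minus strand) for SESN1 and chr15:88621276-88621345 (plus strand) for AEN. DDB2 alone among the members holds 2 half-sites side by side, from 5 to 25 bases after the start site; a pair no more than 13 bases apart, a search added after the data were seen, occurs in 10 of the 35116 windows (0.0285%). The half-site lies 132 to 123 bases before the start of PLK2, 49 to 40 before 1 of the 3 SESN1 starts and 34 to 25 before that of AEN. The C/EBP-ATF element, searched as TGATGNAAN on both strands, was found for PLK3 and GADD45G, neither called, and in 3.61% of all windows; the windows of SESN2 and GADD45B held no match, and GADD45A had no window in the table. These matches describe letters in a window, not binding, and many known p53 sites lie outside such windows.

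Among the inhibitors of p53, 1 of 3 changed, and it fell. MDM4, which binds p53 and blunts its activity, was at 9.82 and 9.55 on the control arrays and 9.15 and 8.96 on the knockout arrays. All knockout values lay below all control values, a fall by 0.63 on the log2 scale (SE 0.13; 1.55-fold; adjusted p = 0.021, limma). Of the 6 MDM4 probe sets, 3 were called lower when each was tested among all 54613 probe sets (13.1% of which were called). The called ones had mean log2 intensities of 9.37, 8.92 and 5.92. The others changed by -0.78, -0.29 and 0.03, at means of 5.87, 6.77 and 5.22. The call was lost without control 1 (adjusted p = 0.086), knockout 1 (0.10) or knockout 2 (0.17).

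MDM2, the ubiquitin ligase that targets p53 for destruction and is itself among its best known targets, read 10.41 and 10.45 in control and 10.62 and 10.59 in knockout cells. The arrays did not overlap, but the difference of 0.17 (95% confidence interval -0.02 to 0.36) did not pass the test (adjusted p = 0.18, limma). MDM2 had 10 probe sets, and 9 of them had changes above 0. Of these, 2 dimmer ones were called higher, by 0.70 and 0.43 (mean log2 intensities 6.21 and 5.29), and the mean of all 10 was also called higher. PPM1D, the phosphatase that removes activating marks from p53, was not called at 0.14 (95% confidence interval -0.07 to 0.35).

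The DNA repair genes showed 1 rise among 4. DDB2, the damage sensor that starts nucleotide excision repair of ultraviolet lesions and carries the paired half-sites shown above, read 8.39 and 8.13 in control cells and 9.58 and 9.51 in knockout cells. It was the largest rise of the 30 members, 1.28 on the log2 scale (SE 0.11; 2.43-fold; adjusted p = 0.0022, limma), and rests on 1 probe set. Leaving out either knockout array raised its adjusted p to 0.056 and 0.057.

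The other repair genes were not called. XPC, which recognizes distorted DNA in the same pathway as DDB2, was lower on both knockout arrays (8.56 and 8.55) than on the control arrays (8.95 and 8.76), with a change of -0.30 that missed the threshold (adjusted p = 0.078, limma). RRM2B, the ribonucleotide reductase subunit that supplies nucleotides for repair, read 8.26 and 8.24 in control and 8.26 and 8.19 in knockout cells, a change of -0.02 (95% confidence interval -0.22 to 0.17). POLH, a polymerase that copies past damaged bases, changed by 0.04 on its brightest probe set, although 1 of its 6 probe sets, with a mean of 5.40, was called higher by 0.78.

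The GADD45 family, small stress proteins that bind kinases and repair factors, had 2 of 3 members lower. GADD45A read 11.86 and 11.88 in control cells and 10.54 and 10.63 in knockout cells. The gap between groups was far wider than that within either, a fall by 1.28 (SE 0.08; 2.44-fold; adjusted p = 0.0010, limma). GADD45B read 9.60 and 9.56 against 8.14 and 8.35, a fall by 1.33 (SE 0.10; 2.52-fold; adjusted p = 0.0015), and all 4 of its probe sets were called lower, by 0.45 to 1.33, with the smallest fall on its only gene-specific probe set. With arrays left out in turn, the adjusted p reached at most 0.041 for GADD45A and 0.042 for GADD45B. GADD45G read 4.96 and 5.08 in control and 4.84 and 5.08 in knockout cells; its change of -0.06 was not called, on a probe set dimmer than the typical gene (median 5.97).

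The sestrins split. These proteins damp the growth kinase mTORC1 and protect from oxidants; SESN1 is a classic p53 target, while SESN2 is also induced by ATF4. SESN1 read 7.93 and 7.72 in control and 8.47 and 8.52 in knockout cells, a rise of 0.67 (SE 0.10; 1.59-fold; adjusted p = 0.0085, limma). SESN2 went the other way, from 9.29 and 9.01 to 7.57 and 7.73. It had the largest change of the 30 members, a fall by 1.50 (SE 0.12; 2.83-fold; adjusted p = 0.0019), and its second probe set gave -1.51. Neither confidence interval came near 0 (0.42 to 0.92 for SESN1, -1.81 to -1.19 for SESN2). With knockout 1 or knockout 2 left out, adjusted p was 0.089 and 0.10 for SESN1 and 0.053 and 0.051 for SESN2. SESN3 was dim on all of its 7 probe sets, with 2.98 and 3.39 in control and 3.30 and 3.07 in knockout cells on the brightest, and was not called.

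Both measured redox and metabolic enzymes rose. TP53I3, also called PIG3, a quinone oxidoreductase, read 8.37 and 8.41 in control cells and 9.39 and 9.54 in knockout cells. The rise of 1.07 (SE 0.09; 2.11-fold; adjusted p = 0.0019, limma) kept its call with any array left out, most narrowly without knockout 2 (adjusted p = 0.0497). TIGAR, a phosphatase that diverts glucose from glycolysis, read 9.36 and 9.27 against 9.80 and 9.84, a rise of 0.50 (SE 0.08; 1.42-fold; adjusted p = 0.010). The TIGAR call was lost without control 2 (adjusted p = 0.059), knockout 1 (0.090) or knockout 2 (0.11), and with arrays set to equal reference genes (0.25, adjusted p = 0.052).

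Of the 6 measured genes that act on the cell cycle, 1 rose and 1 fell. PLK2, a polo-like kinase of centrosome duplication with a half-site before its start, read 10.29 and 10.32 in control cells and 10.87 on both knockout arrays. Arrays within a group differed little beside the rise of 0.56 (SE 0.07; 1.47-fold; adjusted p = 0.0064, limma). BTG1, an antiproliferative protein that links to mRNA decay, read 11.02 and 10.89 in control and 10.25 and 10.36 in knockout cells, a fall by 0.64 (SE 0.09; 1.56-fold; adjusted p = 0.0074), and all 3 of its probe sets were called lower. Without knockout 1 or knockout 2 the adjusted p was 0.077 and 0.083 for PLK2, and 0.087 and 0.076 for BTG1.

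The cyclins of the group were not called. CCNG1, a long known p53 target, read 11.35 and 11.51 in control and 11.49 and 11.40 in knockout cells, so the arrays overlapped, and its change of 0.02 had a 95% confidence interval of -0.21 to 0.26. CCNG2, its relative that growth arrest induces, changed by -0.20 (-0.43 to 0.04). SFN, the 14-3-3 sigma protein that holds back entry into mitosis, overlapped between groups at -0.07 (-0.31 to 0.16). PLK3, a stress-activated polo-like kinase, was lower on both knockout arrays (6.11 and 6.45, against 6.74 and 6.56), but the change of -0.37 missed the threshold (adjusted p = 0.13, limma).

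Of the 3 genes of autophagy and mitochondrial quality, TP53INP1 rose. It encodes a stress protein that enhances p53 activity and takes part in autophagy, and it read 8.49 and 8.61 in control cells and 9.82 and 9.81 in knockout cells. The rise of 1.26 (SE 0.08; 2.40-fold; adjusted p = 0.0011, limma) kept its call with each array left out (adjusted p at most 0.045). Its other two probe sets were dim (means of 5.11 and 3.08) and gave 0.13 and -0.25, neither called. With the mean of all 3 the gene's rise was 0.38 (adjusted p = 0.021). DRAM1, a lysosomal membrane protein that p53 uses to start autophagy, changed by -0.16 (95% confidence interval -0.43 to 0.12), and SPATA18, which acts in mitochondrial quality control, was dim at 4.56 to 4.87 and changed by -0.09.

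Of the 6 remaining effectors 2 rose and 1 fell. TRIAP1, a small protein that supports cell survival under low stress, read 9.89 and 9.82 in control and 10.58 and 10.66 in knockout cells, a rise of 0.76 (SE 0.08; 1.69-fold; adjusted p = 0.0034, limma). ZMAT3, an RNA-binding zinc finger protein, read 9.56 and 9.55 against 10.08 and 9.89, a rise of 0.43 (SE 0.09; 1.34-fold; adjusted p = 0.028). All 5 ZMAT3 probe sets had changes of 0.30 to 0.51, and 1 of them was called when tested among all probe sets. SERTAD1, a cofactor of cyclin D kinases and E2F, fell by 0.78 (SE 0.08; 1.72-fold; adjusted p = 0.0034), from 10.59 on both control arrays to 9.75 and 9.87.

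These 3 calls differed in how firmly they stood. The ZMAT3 call needed all 4 arrays (adjusted p 0.089 to 0.16 with 1 left out), and it was lost with arrays set to equal reference genes (0.18, adjusted p = 0.17). Without knockout 1 or knockout 2 the adjusted p was 0.057 and 0.066 for TRIAP1 and 0.060 and 0.056 for SERTAD1. AEN, a nuclease, overlapped between groups at 0.03 (95% confidence interval -0.17 to 0.24) although its window holds a half-site. PHLDA3, which restrains AKT, overlapped at 0.02 on a probe set of 5.13 to 5.31, and IER5, an immediate early gene that also helps the heat shock factor HSF1, was lower on both knockout arrays (10.71 and 10.69, against 10.88 and 10.94) but not called at -0.21 (adjusted p = 0.12).

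The choice of probe set could be examined only for the 15 of the 30 members that had several. Of the 14 called members, 8 had 1 probe set. The size of the change depended on the choice for TP53INP1 and GADD45B, as given above. In all, 78 probe sets stood for the members, and 11 of these were called higher and 14 lower. Of all 54613 probe sets, 13.1% were called in either direction. No member had probe sets called in both directions. With only probe sets whose names mark them as specific to 1 gene, 25 members could be tested, and the 11 called members among them kept their calls.

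**Figure D3:**
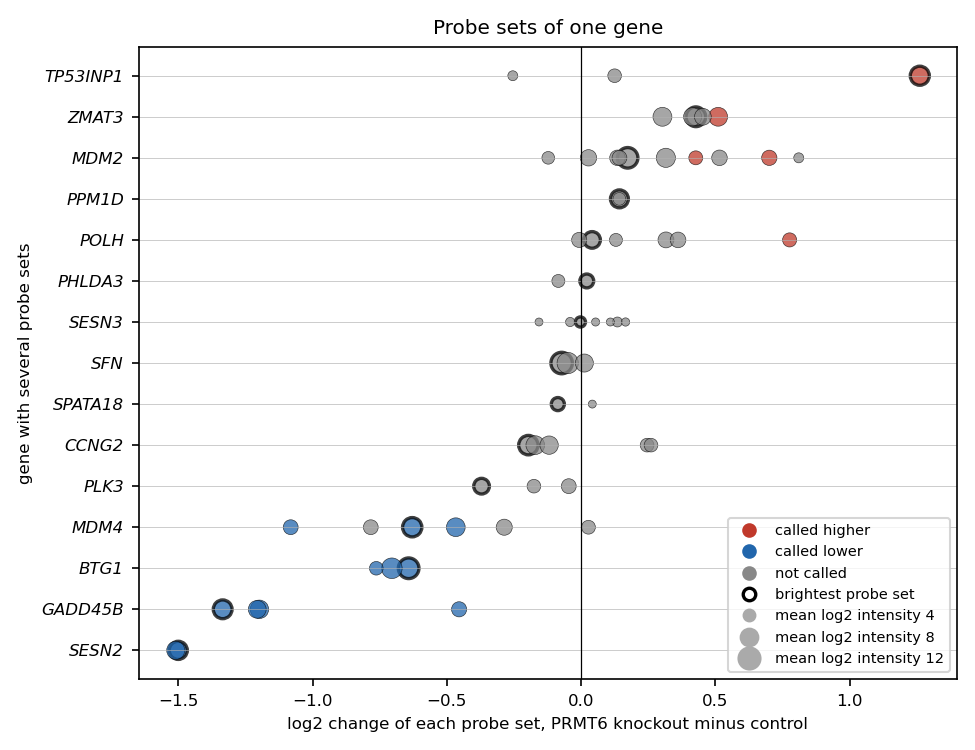
Log2 change (knockout minus control) of every probe set of the 15 p53 target genes that have several, from limma over all 54613 probe sets; larger points are brighter, and the heavy outline marks the probe set that stands for the gene in the text. Points of GADD45B, BTG1 and SESN2 are all blue (called lower), MDM2 and POLH have red points among dimmer probe sets (called higher), and the brightest ZMAT3 point is grey because its adjusted p is 0.060 over probe sets and 0.028 over genes.

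Other genes of the p53 pathway, from lists that served as context, are given next. CDKN1A, which encodes p21 and is the main arrest gene downstream of p53, was not called, with 10.08 on both control arrays, 9.92 and 9.97 on the knockout arrays and a change of -0.14 (95% confidence interval -0.33 to 0.06). Of 12 measured other p53-activated genes 2 rose, ASCC3 (0.41) and RPS27L (0.34), and 2 fell, the stress cytokine GDF15 (-1.50) and ANKRA2 (-0.68), with a list median of 0.05. The 33.3% called, 16.7% in each direction, lie near the shares over all genes (24.0%, or 12.4% higher and 11.5% lower). GDF15 kept its call with each array left out (adjusted p at most 0.035). The calls of ASCC3 and RPS27L needed all 4 arrays (0.079 to 0.18 and 0.086 to 0.16 with 1 left out), and ANKRA2 was lost without either knockout array (0.078 and 0.092). With reference gene scaling, described last, ASCC3 (adjusted p = 0.19) and RPS27L (0.35) were not called either.

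Apoptotic targets of p53 also went both ways. Of 11 measured, 5 rose, among them the BCL2 family genes BID (0.89) and BAX (0.72) and the endoplasmic reticulum protein gene EI24 (0.69), while 2 fell, the death receptor TNFRSF10B (-1.38) and PMAIP1 (-0.63), which encodes NOXA. The 63.6% called, 45.5% higher and 18.2% lower, compare with 24.0%, 12.4% and 11.5% of all genes. The list median was 0.26, and the other rises, of FAS (0.47) and PIDD1 (0.41), were not called under reference gene scaling (adjusted p = 0.12 and 0.16, limma). Both also lost their calls without control 1 and without either knockout array, and PIDD1 without control 2 (adjusted p at most 0.16 and 0.15). TNFRSF10B, which stress through ATF4 and CHOP also induces, kept its call with each array left out (adjusted p at most 0.036). BID, BAX and EI24 lost theirs without either knockout array (adjusted p 0.059 to 0.073), and PMAIP1 needed all 4 arrays (0.061 to 0.12 with 1 left out).

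Among 15 measured regulators of p53, CHEK1, a checkpoint kinase that can phosphorylate p53, rose by 0.52, and 4 genes fell, including the kinase HIPK2 (-0.57), the acetyltransferase EP300 (-0.55) and PPP1R13L (-0.51), an inhibitor of p53 also called iASPP. The 6.67% called higher and 26.7% lower compare with 12.4% and 11.5% of all genes, and the list median was 0.00. None of these calls held with each array left out. Without either knockout array all 4 named calls were lost, with adjusted p reaching 0.10 for CHEK1, 0.095 for HIPK2, 0.11 for EP300 and 0.13 for PPP1R13L. CHEK1 (0.054), HIPK2 (0.056) and PPP1R13L (0.060) were also lost without control 1, and HIPK2 (0.064) and EP300 (0.056) without control 2.

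Genes that p53 lowers through p21 and the DREAM repressor complex were all higher in knockout cells. All 6 rose, with a median of 0.89, led by the cyclin CCNB1 (1.11), the survival protein gene BIRC5 (1.11), the mitotic kinase PLK1 (0.98) and CCNB2 (0.79). Over all genes 12.4% were called higher. CCNB1 and BIRC5 kept their calls with each array left out (adjusted p at most 0.045). PLK1 lost its call without control 2 (0.059) or knockout 2 (0.062), and CCNB2 without either knockout array (0.055 and 0.058). These are also general genes of dividing cells, and their part in the changes of the p53 targets was not tested.

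ATF4 targets outside the members fell almost throughout. Of 19 measured, 17 fell, with a median of -1.65, led by NUPR1 (-3.26), ATF3 (-2.81), DDIT3 (-2.71) and DDIT4 (-2.44), and these 4 kept their calls with each array left out (adjusted p at most 0.030). The exceptions were VLDLR (0.26) and STC2 (-0.02), neither called, and 11.5% of all genes were called lower. Both exceptions were dim, VLDLR at 2.32 to 2.70 and STC2 at 4.99 to 5.19 over the 4 arrays, so a fall could hardly show. SESN2 (-1.50), GADD45B (-1.33) and GADD45A (-1.28) lay on the same side as this list. So did SERTAD1 (-0.78), BTG1 (-0.64) and MDM4 (-0.63), which were not set apart as ATF4-linked. The 8 members called higher lay on the other side, with TP53INP1, DDB2 and TP53I3 rising by over 1. Members other than the ATF4-linked are named here by their calls, so the side on which they lie was fixed by that choice. The ATF4-linked genes were set apart with earlier results of these arrays known. The ATF4 transcript was itself lower, by 0.62, a call lost without either knockout array (adjusted p 0.069 and 0.077). Whether the fall of the ATF4 targets accounts for that of the ATF4-linked p53 targets was not tested.

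**Figure D4:**
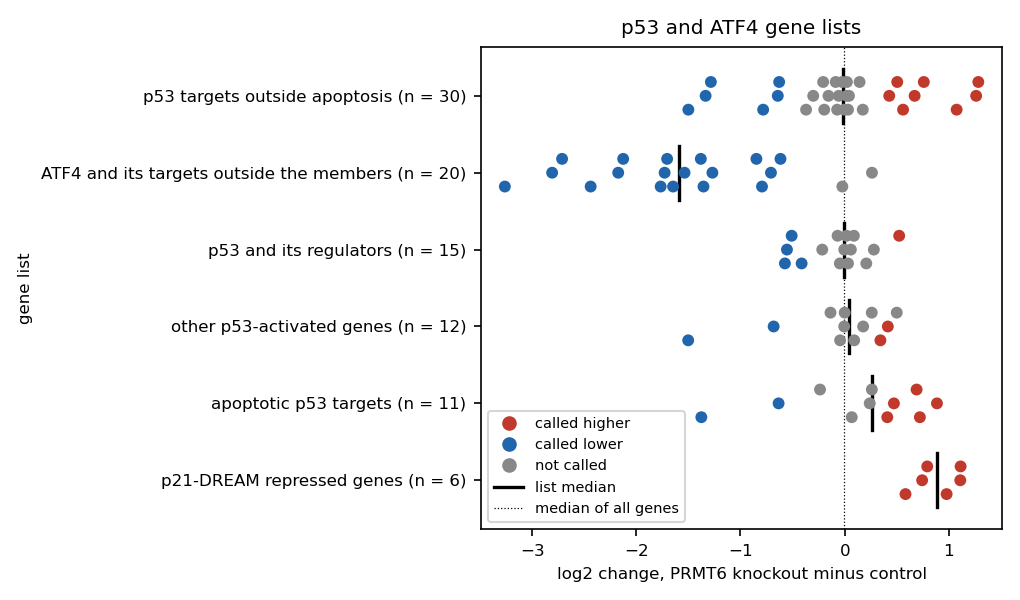
Log2 change (knockout minus control) of each gene in 6 lists, 1 point a gene, with the list median as a black bar and the median of all 19775 genes as a dotted line. The p53 targets outside apoptosis spread to both sides of 0 around a median of -0.01, ATF4 and its targets lie mostly to the left (median of all 20 genes -1.59) and the p21-DREAM repressed genes to the right (median 0.89).

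Scaling moved the balance between rises and falls. On the deposited scale 57.1% of the called members were higher. With arrays set to equal means of 10 reference genes every change moved by -0.25 and the median of all genes from -0.01 to -0.26. Then 6 members were called higher and 13 lower, and 31.6% of called members were higher. All genes shifted with them: 43.0% were called on this scale and 14.5% of those calls were higher, against 51.9% on the deposited scale. The members called lower on this scale alone were XPC, PLK3, IER5, CCNG2, DRAM1, SFN and RRM2B. DDB2, TP53INP1, TP53I3, TRIAP1, SESN1 and PLK2 were higher and all 6 genes that fell were lower on both scales; SESN1 (0.42) and PLK2 (0.31) were over 1.5 times smaller on the second. TIGAR and ZMAT3 kept their sign but not their call, and MDM2 turned from 0.17 to -0.08 without a call on either.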

How the data were processed

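The values are log2 intensities for 54613 probe sets on 4 arrays, which the authors made with RMA from the affy package, per the submitters' processing notes (versions not given in the sources used here). RMA equalizes the arrays' distributions, so changes are relative to other transcripts, and it compresses those of dim probe sets; the number of arrays limits precision, and without detection calls no background limit is known. Per the labels' protocols, labelling started at the 3′ end of transcripts.

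Probe sets with 1 gene symbol (41091) were named through the platform annotation, updated by Entrez number to RefSeq GRCh38.p14 (41037 matched). The brightest probe set stood for a gene. The groups were compared by limma (3.58.1, under R 4.3.3; 2 residual and 3.27 prior degrees of freedom), checked on simulated data. Named were all members, PRMT6, CDKN1A and, per context list, up to 4 called genes with the largest change; FAS, PIDD1, PMAIP1, STC2, VLDLR, ATF4 and the markers lie outside this rule and were named after their values were seen. The members and lists were chosen with earlier results of these data known.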

Additional observations from a re-analysis of the deposited data

How the results depend on the processing

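Limits first. With 2 arrays a group, every count rested on all 4, and the threshold was passed far less often with 1 knockout array. With arrays left out in turn, members called higher ranged from 2 to 7 and lower from 2 to 6; all genes called higher from 154 to 1371 and lower from 354 to 1258 (2459 and 2281 with all arrays); context genes called higher from 2 to 10 and lower from 15 to 23 (14 and 26 with all arrays); and the PRMT6 change from -0.44 to -0.28, never called. With 1 knockout array, the lone array is assumed to vary like the controls.

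Reference gene scaling gave 13 members lower, 1233 genes higher and 7280 lower, and a member median of -0.26; 5 of the 10 reference genes were themselves called higher on the deposited scale. Gene-specific probe sets gave 1616 genes higher, 15 context genes lower, and PRMT6 at -0.36 without a call (adjusted p = 0.057); fewer genes are tested there. The titles number the arrays of both groups 1 and 2, but deviations of same-numbered arrays correlated at 0.05, so the numbers were not taken to pair them. With the replicate block, all 14 member calls remained, 3972 genes were called in all, and PRMT6 was -0.36 without a call (adjusted p = 0.076). All 14 member calls also remained with the mean of probe sets, an intensity trend and brighter genes only; MDM2 joined them with the mean and the trend, XPC and IER5 with the trend and the brighter genes, and PLK3 with the brighter genes. Dim probe sets of TP53INP1 (-0.25) and MDM4 (0.028) had the opposite sign to the gene, uncalled. The causes were not tested.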
